A study of Mus musculus with 9 samples.

Results

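The comparison described here was polysomal RNA against total RNA in MP cells, a population of primary mouse blood-forming cells that the labels call MP and describe as progenitors. The sources used here do not spell out the abbreviation. Its members were the 3 MP polysomal and the 2 MP total RNA sequencing libraries, 5 of the 9 libraries of the series, and the 16426 of 47480 genes that passed a filter on low counts. The other 4 libraries came from LSK cells, the stem cell population of the series, with 2 polysomal and 2 total libraries. All cells came from C57BL/6 mice and all, also those for total RNA, had been held in cycloheximide, an inhibitor of translation elongation, at 100 ug/ml for 10 min before lysis. Part of each lysate was set aside as total RNA. The rest was spun through a sucrose gradient of 10 to 60%, 10 fractions were collected, and fraction 7 supplied the polysomal RNA. The labels give no age, no sex and no number of animals, and they do not say which polysomal and total libraries shared a lysate. P-values here therefore measure the spread between libraries, which may be technical.

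A message that is being translated carries several ribosomes at once, and such polysomes sediment faster through sucrose than single ribosomes or free RNA. The share of a transcript in a polysomal fraction relative to total RNA depends on how many ribosomes it carries, and a long coding region has room for more of them. RNAs that work in the nucleus, such as small nucleolar RNAs that guide the modification of ribosomal RNA, are not translated. Messages for ribosomal proteins and elongation factors carry a 5′ terminal oligopyrimidine tract (TOP) and are known to move on and off polysomes with growth signals. One heavy fraction is not the whole of the polysomes, so a message loaded with few ribosomes can be translated and still lie outside it.

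Levels are given as CPM, the counts of a gene scaled to one common library size, after TMM adjustment of the library sizes, and differences as log2 polysomal over total from edgeR's quasi-likelihood fit of all 9 libraries, with its standard error (SE). These CPM are not divided by gene length, so they were compared between libraries and not between genes. Summed levels of a class run over all its entries in the count table, also those that failed the filter. Medians and counts of genes cover the tested members only. A gene is said to lie wholly above or wholly below where all 3 polysomal libraries exceeded, or fell short of, both total libraries. The filter asked for about 10 counts in at least 2 libraries of any group. A gene of low counts could therefore pass it through a single fraction, and its place wholly above or below was then partly set by the filter.

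No gene passed an adjusted p of 0.05 (Benjamini-Hochberg, edgeR's quasi-likelihood test) in the MP comparison: 0 of 16426 were called higher (0.0%) and 0 lower (0.0%). The smallest adjusted p was 0.471. At an unadjusted p under 0.05 there were 657 genes higher (4.0%) and 586 lower (3.57%) in polysomal RNA. DESeq2 called 10 genes higher and 8 lower from the same counts. Over all tested genes, 2673 lay wholly above (16.3%) and 2690 wholly below (16.4%), and the median log2 difference was −0.08. With library totals as the only scaling that median was −0.22, and on that scale the log2 values below lie lower by about this gap. For a single value, the exact two-sided permutation test of 3 libraries against 2 cannot give a p below 0.2. Because nothing passed the test, the classes of RNA below are described by their values, their counts and their medians beside these shares of all genes.

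The MP libraries held 30463969 to 34807735 counts in genes. Pearson correlations of log2 CPM across genes, given as a description, were 0.946 between the total libraries and 0.933 to 0.975 among the polysomal ones, and 0.909 to 0.969 between the fractions. The fractions thus overlapped in their likeness: polysomal 3 was closer to total 2 (0.969) than to polysomal 1 (0.933). The markers of the population were in place, with Kit, the stem cell factor receptor, at 493 to 1290 CPM and Mpo, a granule enzyme of myeloid progenitors, at 18240 to 36847 CPM, while Ly6a, a surface marker of LSK cells, stayed at 0.159 to 1.26 CPM. The T cell gene Cd3e was at most 0.0342 CPM and the stromal genes Cxcl12 and Col1a1 at most 0.0991 CPM. Genes of maturing neutrophils did not follow the fraction but the library number. Their summed CPM was 16690 and 1452 in total 1 and 2, and 22660, 1369 and 979 in polysomal 1, 2 and 3, and 21 of the 22 tested members overlapped between fractions. In bulk RNA, fewer cells of a type and less RNA per cell cannot be told apart. The one 18S ribosomal RNA entry, Rn18s-rs5, took 0.726% and 0.487% of the counts in total RNA and 0.0814%, 0.407% and 0.176% in polysomal RNA. Whether ribosomal RNA was removed is not recorded in the labels, and no gene of the mitochondrial genome was in the table.

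Small noncoding RNAs of the nucleus and nucleolus were among the classes with the lowest medians. Of the 57 small nucleolar RNAs annotated as such, none lay wholly above and 45 wholly below, with a median fitted log2 difference of −1.90. Their median log2 CPM relative to total RNA was −1.59, −1.41 and −1.50 in polysomal 1, 2 and 3. The SD of 0.09 is that of these 3 values and not a spread around −1.90. The summed level of all 1467 small nucleolar entries in the table was 57.7 and 46.7 CPM in total RNA. In polysomal RNA it was 14.6, 13.8 and 15.9 CPM, so the groups were far apart on a low level. To illustrate the class, 3 of them are shown: Snora68, of the H/ACA type that guides the conversion of uridine to pseudouridine, Snord72, of the C/D type that guides methylation of ribose, and Snord118, the U8 RNA needed to process the large-subunit ribosomal RNA. Their transcripts are printed from the GENCODE M21 annotation of GRCm38, 5′ to 3′, with the boxes found in them in capitals (the ACA box for Snora68, the D box CTGA for Snord72, the C box TGATGA and the D box CTGA for Snord118).
Snora68: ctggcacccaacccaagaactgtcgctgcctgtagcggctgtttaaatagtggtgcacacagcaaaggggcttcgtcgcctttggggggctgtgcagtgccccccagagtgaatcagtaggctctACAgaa
Snord72: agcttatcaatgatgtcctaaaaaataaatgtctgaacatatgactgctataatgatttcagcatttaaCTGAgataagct
Snord118: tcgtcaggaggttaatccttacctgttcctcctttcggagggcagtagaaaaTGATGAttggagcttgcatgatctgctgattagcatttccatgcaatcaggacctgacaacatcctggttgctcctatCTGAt
Snora68 (chromosome 8, 70895759 to 70895889, minus strand) stood at 4.13 and 3.34 CPM in total RNA and at 1.196, 0.958 and 0.988 CPM in polysomal RNA, a log2 difference of −1.83 (SE 0.56). Snord72 (chromosome 15, 5118404 to 5118484, plus strand) measured 1.40 and 0.422 CPM against 0.0683, 0.231 and 0.159 CPM. Snord118 (chromosome 11, 69073427 to 69073561, plus strand) gave 0.866 and 0.584 CPM against 0.0683, 0 and 0.0319 CPM. All 3 lay wholly below. Most small nucleolar RNAs sit in introns of host genes, and the counts cannot separate the processed RNA from unspliced host transcripts. The hand-made list of small nucleolar and Cajal body RNAs, which shares members with the annotated class, had 33 tested genes, of which 26 lay wholly below and none wholly above (median −1.98).

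The spliceosomal small nuclear RNAs, together with the 7SK RNA that holds back transcription elongation and other short stable RNAs, formed a list of 10 tested genes. Of these, 9 lay wholly below, with a median log2 difference of −2.86. Summed levels over all 210 entries of the list were 13.5 and 15.7 CPM in total against 3.18, 3.40 and 1.91 CPM in polysomal RNA. Rnu2-10, a U2 entry, read 0.633 and 0.812 CPM against 0.171, 0.0661 and 0.0637 CPM, and Rpph1, the RNA of the enzyme that trims transfer RNA, 2.56 and 3.25 CPM against 0.205, 0.562 and 0.414 CPM. The 18 genes of the annotated small nuclear RNA class had 15 wholly below and 1 wholly above (median −2.77). Entries annotated as microRNA had 10 of 17 wholly below and a median of −2.29. Their summed level of 424 and 795 CPM in total against 78.0, 147 and 179 CPM in polysomal RNA was mostly the predicted gene Gm23935, with 379 and 704 against 59.2, 124 and 150 CPM. The list of microRNA precursors by name had 11 tested genes, 5 of them wholly below (median −1.75). Few of these small RNAs were measured at all: 57 of 1467 small nucleolar entries and 17 of 2148 microRNA entries in the table passed the filter. At such low counts an entry could pass through total RNA alone. The small nucleolar entry Gm24949, for example, had 11 and 16 counts in MP total RNA against 0, 0 and 1 in polysomal RNA. The shares wholly below in these classes are thus not free of the filter. On the scale of the authors' normalized values, the medians of these classes were smaller, and that of the small nucleolar class was −0.69.

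**Figure D1:**
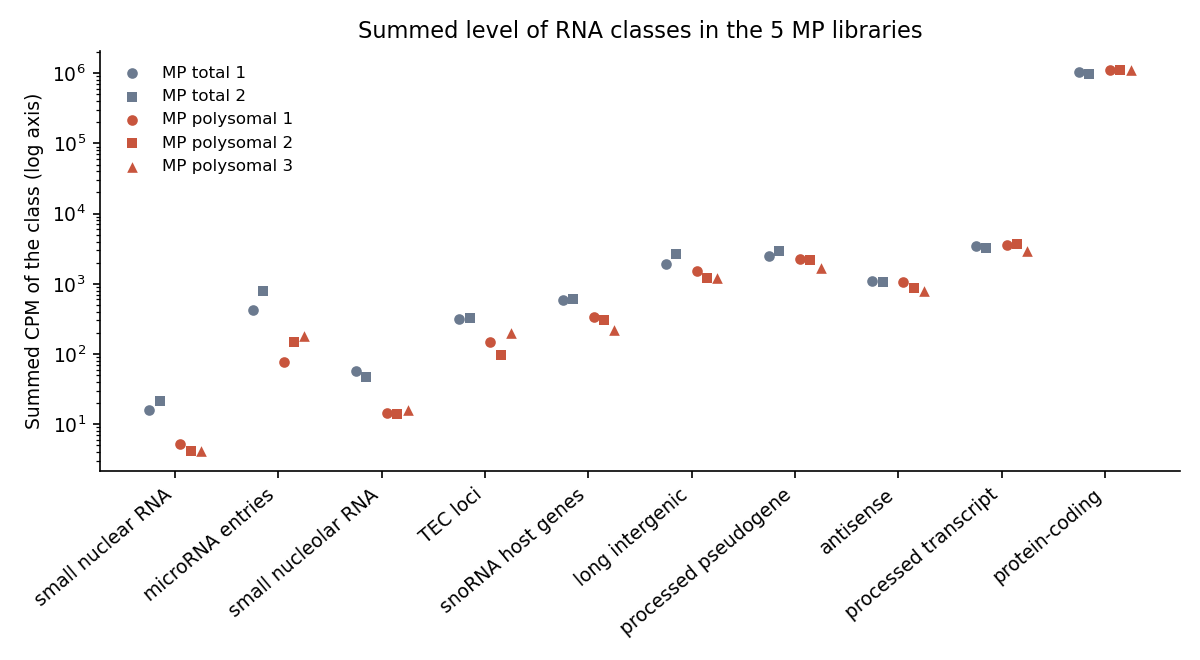
Summed CPM (log axis) of 10 RNA classes in each of the 2 MP total and 3 MP polysomal libraries, with points for single libraries and classes named on the horizontal axis. Sums run over all entries of a class in the count table, tested or not. Small nuclear, microRNA and small nucleolar entries sit lower in all 3 polysomal libraries, for example 57.7 and 46.7 against 14.6, 13.8 and 15.9 for small nucleolar RNA, while processed transcripts overlap.

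The classes of longer noncoding RNA and pseudogenes also had negative medians, from −0.43 to −1.98, and each had at least 1 member wholly above. Their members of low counts could likewise pass the filter through total RNA alone. Long intergenic RNAs had 130 of 399 wholly below and 20 wholly above (median −0.64), and their summed level was 1894 and 2690 CPM in total against 1501, 1204 and 1220 CPM in polysomal RNA. Antisense RNAs had 190 of 473 wholly below and 7 wholly above (median −0.91), but their sums overlapped between the fractions. The strand setting of the counting is not given in the sources used here. Reads of an antisense RNA and of the gene opposite it therefore cannot be told apart. TEC loci, which GENCODE marks for experimental follow-up, had 210 of 465 wholly below and 13 wholly above (median −1.53, or −1.22 with genes at 0 in one fraction set to a floor of 3 counts). Transcripts inside introns on the sense strand had 35 of 63 wholly below and 1 wholly above (median −1.98, or −1.58 at that floor), and their sums overlapped, with 75.9 and 51.5 CPM in total against 55.5, 39.6 and 39.0 CPM in polysomal RNA. Bidirectional promoter RNAs had 22 of 46 wholly below (median −1.07), processed transcripts without an open reading frame 98 of 235 (median −0.76), and processed pseudogenes 295 of 995 (median −0.43). Protein-coding genes, by contrast, had 2520 of 13130 wholly above and 1533 wholly below, with a median of 0.01.

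Host genes of small nucleolar RNAs are spliced transcripts whose introns release the guide RNAs, and whose exons carry no long open reading frame. None of their 15 tested members lay wholly above and 11 lay wholly below, with a median log2 difference of −1.46 (SD 0.23; −1.59 with genes at 0 in one fraction at the floor) and summed levels of 582 and 604 CPM in total against 341, 304 and 216 CPM in polysomal RNA. Gas5, a host gene with a TOP start, read 277 and 301 CPM in total RNA and 162, 158 and 111 CPM in polysomal RNA, a log2 difference of −1.01 (SE 0.40). Snhg6 had 18.8 and 29.4 CPM against 2.73, 7.93 and 6.37 CPM (−2.08, SE 0.61). Snhg1 gave 56.8 and 59.3 CPM against 29.1, 24.2 and 19.8 CPM. In each of these, the highest polysomal library stayed under the lowest total library.

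The list of nuclear long noncoding RNAs did not move as one. Its 21 tested members had a median of −1.22 (−0.83 with genes at 0 in one fraction at the floor), 9 wholly below and 2 wholly above, and that median depended on the libraries used, at −0.21 when the 5 MP libraries were fitted alone and −0.48 without total 1. The abundant members differed in sign. Malat1 (chromosome 19, 5795690 to 5802672, minus strand), which gathers in nuclear speckles, stood at 88.6 and 112 CPM in total RNA and at 242, 136 and 242 CPM in polysomal RNA, a log2 difference of 1.04 (SE 0.85). Tug1 had 62.8 and 45.3 CPM against 196, 132 and 152 CPM (1.56, SE 0.75). Both lay wholly above. Neat1, the scaffold of paraspeckles, lay wholly below, with 78.7 and 50.8 CPM against 46.7, 37.6 and 39.3 CPM (−0.65, SE 0.72). Through Malat1 and Tug1 the summed level of the list was higher in polysomal than in total RNA, against its median.

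Messages for the proteins of the cytosolic ribosome were the coding class with the largest share wholly below. Of 89 tested genes, 78 lay wholly below and none wholly above, 86 had a negative log2 difference and 28 had an unadjusted p under 0.05. The median was −0.89 (SD 0.38), which is 1.86-fold lower in polysomal RNA. Their summed level was 38720 and 46730 CPM in total RNA and 28789, 30140 and 18246 CPM in polysomal RNA, so all polysomal sums were under both total sums and polysomal 3 was the lowest. The 3 genes of the list with the smallest p were Rpl35, Rps28 and Rpl36. Rps19 (chromosome 7, 24884371 to 24889806, plus strand), which encodes a small-subunit protein, stood at 509 and 679 CPM in total RNA and at 258, 268 and 154 CPM in polysomal RNA, a log2 difference of −1.39 (SE 0.42, adjusted p 0.656 in edgeR's quasi-likelihood test). Rpl35 gave 209 and 330 CPM against 79.3, 94.6 and 56.0 CPM (−1.81, SE 0.52), and Rps28 gave 83.3 and 142 CPM against 36.9, 39.4 and 22.7 CPM (−1.77, SE 0.52). The highest member was Rpl7l1, a paralog with a role in ribosome assembly, at 0.31 and with overlapping libraries. Ribosomal protein genes have many processed pseudogenes, and how reads shared with those copies were assigned is not given in the sources used here.

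The start of the transcript was read for these genes because a pyrimidine tract there defines the TOP class. The windows run from 10 bases before to 20 bases after the start annotated by RefSeq on GRCm38.p6, 5′ to 3′ on the gene's strand, with the tract in capitals where there was one.
Rpl35: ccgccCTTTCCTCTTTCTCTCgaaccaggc
Eef1a1: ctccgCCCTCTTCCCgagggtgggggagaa
Rps28: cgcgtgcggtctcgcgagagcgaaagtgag
A tract was a C followed by at least 5 bases that are C or T, beginning within 5 bases of the annotated start. It was found in 28 of 64 ribosomal protein genes with a window (43.8%), against 1301 of 10072 tested coding genes (12.9%), 10 of 64 respiratory chain genes (15.6%) and 3 of 58 mitosis genes (5.17%). Ribosomal protein genes with a tract had a median of −0.94 and those without one −0.89. Annotated starts can lie some bases from the start used, so a window without the letters says nothing of the TOP class.

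Other TOP messages and elongation factors had a median nearer to that of all genes. In this list of 21 genes, 3 lay wholly above (Eef2, Eif4b and Hnrnpa1) and 6 wholly below (Btf3, Eef1b2, Eif3h, Gltscr2, Naca and Tpt1), and the median was −0.19, with a sign that turned under some alternatives. Eef1a1, the elongation factor that brings aminoacyl-tRNA to the ribosome, read 4836 and 3962 CPM in total RNA and 5763, 4975 and 2725 CPM in polysomal RNA. Its libraries overlapped, and its log2 difference of 0.03 (SE 0.43) changed sign in 7 alternative settings. Tpt1, a short abundant TOP message, had 244 and 421 CPM against 73.4, 123 and 130 CPM (−1.61, SE 0.57). Hnrnpa1, a splicing regulator, had 240 and 204 CPM against 561, 579 and 350 CPM (1.16, SE 0.49). Both of these genes were free of overlap, in opposite directions.

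Genes of translation outside the ribosome lay nearer to or above the median of all genes. Of 42 initiation factor genes, 12 lay wholly above and 6 wholly below (median 0.17). Eif3a, the largest subunit of the factor that prepares the small ribosomal subunit, was among the 10 higher genes with the smallest p, at 126 and 103 CPM in total RNA and 558, 564 and 469 CPM in polysomal RNA (2.21, SE 0.51). Aminoacyl-tRNA synthetases, which load amino acids onto transfer RNA, had 15 of 40 wholly above and 1 wholly below (median 0.42, SD 0.14). Eprs, the fused enzyme for glutamate and proline, read 185 and 116 CPM against 593, 962 and 696 CPM. Ribosome assembly and nucleolar genes had 18 of 48 wholly above and 8 wholly below (median 0.30).

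Nuclear genes for the mitochondrial respiratory chain were the second large coding class with low values. Of 79 tested, 51 lay wholly below and 2 wholly above, 12 had an unadjusted p under 0.05 in the lower direction, and the median was −0.66 (SD 0.24). Ndufb9 (chromosome 15, 58933756 to 58939488, plus strand), an accessory subunit of complex I, stood at 267 and 361 CPM in total RNA and at 87.8, 172 and 107 CPM in polysomal RNA, a log2 difference of −1.36 (SE 0.49). Atp5e, the smallest rotor subunit of ATP synthase, had 141 and 199 CPM against 67.4, 83.0 and 41.2 CPM (−1.41, SE 0.45). The lowest member by difference, Cox5a, varied widely within each fraction, with 131 and 342 CPM against 8.16, 49.1 and 163 CPM, and overlapped. The 2 genes wholly above were the core subunits Ndufs1 of complex I, with 227 and 210 CPM against 779, 626 and 522 CPM, and Sdha of complex II, with 831 and 522 CPM against 1471, 1488 and 1126 CPM. Ndufs1 and Sdha have coding lengths of 2184 and 1995 nt, against a class median of 435 nt.

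Proteins of the mitochondrial ribosome had 35 of 81 genes wholly below and 3 wholly above (median −0.41, SD 0.22). Ptcd3, at the upper end, read 97.6 and 96.7 CPM against 295, 249 and 172 CPM. Enzymes of the citric acid cycle and fatty acid oxidation, also mitochondrial, had 12 of 32 wholly above and none wholly below (median 0.31, SD 0.07). Each of these mitochondrial lists held members of either sign, and the difference between the lists was not tested.

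Histone messages, which end in a stem-loop in place of a poly(A) tail when they belong to the replication-dependent kind, had negative differences in all 59 tested genes, with 26 wholly below and a median of −1.53. The list also holds the polyadenylated replacement genes H3f3a and H3f3b, of which H3f3b was the highest member at −0.08. The spread was wide: the class median was −2.54 in polysomal 1, −1.50 in polysomal 2 and −0.57 in polysomal 3, an SD of 0.99. Hist4h4 stood at 3.03 and 3.64 CPM in total RNA and 0.649, 1.26 and 1.12 CPM in polysomal RNA (−1.72, SE 0.56). The summed level of 2460 and 2311 CPM against 1564, 2258 and 1759 CPM stayed wholly below by a narrow margin. Immediate early and short-lived messages had 9 of 37 wholly below and none wholly above, with 36 negative differences and a median of −0.93 (SD 0.50). Junb, a transcription factor of this group, read 167 and 85.6 CPM against 10.3, 30.6 and 79.2 CPM and lay wholly below, again with polysomal 1 lowest.

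The higher genes named by rule encode long proteins. Given here are 7 of the 10 with the smallest p: Sf3b1, Eif3a, Rictor, Herc1, Usp24, Birc6 and Trip12. Each of the 7 had an adjusted p of 0.656 in edgeR's quasi-likelihood test and no overlap between fractions, and their log2 differences ran from 2.06 to 2.90. Sf3b1 (chromosome 1, 54985169 to 55027481, minus strand), the branch-point protein of the spliceosome, stood at 323 and 293 CPM in total RNA and at 2115, 1802 and 1818 CPM in polysomal RNA (2.63, SE 0.60). Rictor, a core part of an mTOR complex, gave 36.3 and 27.6 CPM against 148, 135 and 121 CPM (2.08, SE 0.49). Birc6, a giant enzyme of ubiquitin transfer, gave 35.1 and 34.6 CPM against 142, 302 and 286 CPM (2.80, SE 0.69). In all of these the lowest polysomal library lay far above the highest total library. Herc1 and Trip12 are ubiquitin ligases as well, and Usp24 is a protease that removes ubiquitin. Coding lengths of the 7 genes ran from 3915 to 14622 nt and their transcript GC content from 42.1% to 47.3%, against medians of 1374 nt and 50.3% over all tested coding genes.

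The 10 lower genes named by the same rule were Zfp46, Mdm2, Triobp, Hdac5, Rpl35, Rgl2, Rps28, Snhg6, Tchp and Rpl36. Zfp46 (chromosome 4, 136284683 to 136293942, plus strand), a zinc finger gene, had the smallest p of them, at 25.3 and 29.3 CPM in total RNA and 1.43, 1.59 and 2.01 CPM in polysomal RNA, a log2 difference of −4.02 (SE 0.59, adjusted p 0.471). Mdm2 (chromosome 10, 117688875 to 117710758, minus strand), the ligase that marks p53 for degradation, stood at 58.5 and 71.2 CPM against 12.98, 16.3 and 15.97 CPM (−2.10, SE 0.49). Triobp, an actin-binding gene, had 88.7 and 60.4 CPM against 8.33, 19.8 and 20.4 CPM (−2.20, SE 0.60). The 9 coding genes among them had coding lengths of 210 to 6045 nt. One predicted gene that the rule left out, Gm10800, reached the smallest p of all, 4.54e-05, from 86 and 732 counts in the total libraries against 0, 1 and 0 in the polysomal ones.

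**Figure D2:**
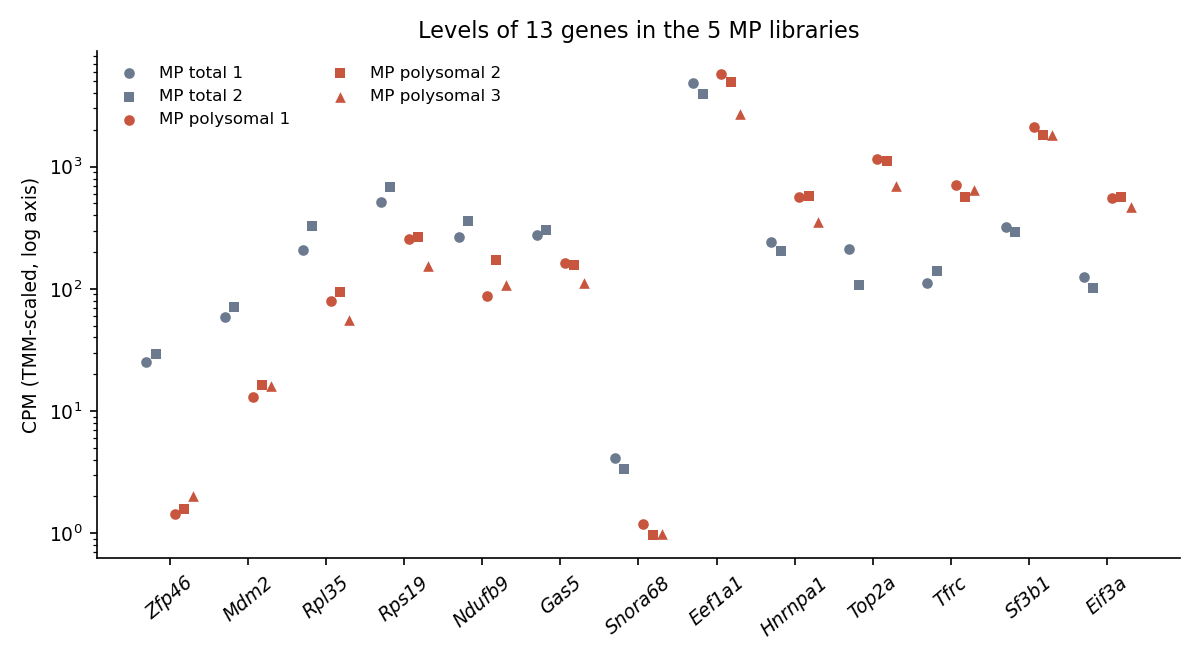
CPM (log axis) of 13 named genes in the 2 MP total and 3 MP polysomal libraries, with points for single libraries. Zfp46, Mdm2, Rpl35, Rps19, Ndufb9, Gas5 and Snora68 lie lower in every polysomal library, Eef1a1 overlaps, and Hnrnpa1, Top2a, Tfrc, Sf3b1 and Eif3a lie higher, as for Sf3b1 with 323 and 293 against 2115, 1802 and 1818.

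Mitosis genes, kinesins and condensins had the highest median of the coding lists. Of 66 tested, 39 lay wholly above and 4 wholly below, 16 had an unadjusted p under 0.05 in the higher direction, and the median log2 difference was 1.04 (SD 0.28), or 2.05-fold. Their summed level was 9611 and 7066 CPM in total RNA and 14595, 14172 and 11626 CPM in polysomal RNA. Top2a (chromosome 11, 98992943 to 99024189, minus strand), the topoisomerase that untangles sister chromatids, stood at 212 and 107 CPM in total RNA and at 1154, 1116 and 691 CPM in polysomal RNA (2.63, SE 0.84). Kif11, the motor that separates the spindle poles, had 63.3 and 35.7 CPM against 216, 241 and 222 CPM (2.19, SE 0.74). Aspm, a spindle pole protein, had 18.9 and 17.2 CPM against 62.0, 126 and 167 CPM (2.71, SE 0.79). The 4 genes wholly below, Ccnb2, Cenpa, Spc24 and Ube2c, have coding lengths of 405 to 1197 nt against a class median of 2360 nt. Cenpa, the centromeric histone, gave 364 and 355 CPM against 72.7, 234 and 209 CPM (−1.07, SE 0.76). Genes of DNA replication and S phase had 21 of 56 wholly above and 4 wholly below (median 0.32, SD 0.05), with Pola1, the catalytic subunit of the polymerase that starts new strands, at 27.2 and 30.6 CPM against 243, 174 and 175 CPM (2.77, SE 0.70).

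A list of large chromatin and ubiquitin genes also had high values. Size is part of how this list is defined: its median coding length was 4894.5 nt, against 1374 nt over all tested coding genes. Of 50 Polycomb, MLL and other large chromatin and ubiquitin genes, 27 lay wholly above, none wholly below and 16 had an unadjusted p under 0.05, with a median of 0.70 (SD 0.20). The summed level was 2978 and 2951 CPM in total RNA and 4662, 7039 and 6121 CPM in polysomal RNA. Kmt2c, a histone H3 methyltransferase, read 22.0 and 23.3 CPM against 77.9, 114 and 120 CPM (2.20, SE 0.70), and Huwe1, a giant ubiquitin ligase, 104 and 70.6 CPM against 418, 608 and 335 CPM (2.38, SE 0.64). Zinc finger genes with a Zfp symbol had 144 of 305 wholly above and 14 wholly below, and a median of 0.55 (SD 0.20), among them Zfp871 with 13.3 and 14.2 CPM against 99.4, 84.2 and 94.4 CPM. Zfp46, by log2 difference the lowest of the 10 lower genes named by rule, belongs to the same list, whose lowest member was Zfp37 at −4.11. The spliceosome list had 21 of 69 wholly above and 10 wholly below (median 0.17). It ran from Snrpf, a small core protein at −1.73 with 52.8 and 93.7 CPM against 5.40, 25.97 and 34.8 CPM, to Sf3b1 at 2.63.

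Chaperone, metabolic and signalling lists had medians from −0.25 to 0.45, against −0.08 over all genes. The TRiC chaperonin and prefoldin had 5 of 14 wholly above and 2 wholly below (median 0.45), cytosolic heat shock proteins 9 of 28 and 3 (0.15), and glycolysis and the pentose phosphate pathway 4 of 30 and 1 (0.33). Hsp90aa1, the inducible cytosolic HSP90, lay wholly above with 299 and 300 CPM against 1527, 1300 and 938 CPM (2.07, SE 0.62). Proteasome subunits had 6 of 47 wholly above and 8 wholly below (median −0.07), autophagy and lysosomal pump genes 6 of 39 and 7 (−0.09), chaperones and the translocon of the endoplasmic reticulum 8 of 41 and 10 (−0.25), antioxidant enzymes 1 of 30 and 6 (−0.18), and mTOR complexes with their 4E-BP targets 5 of 25 and 3 (−0.22). Messages of the integrated stress response and others with upstream open reading frames had 2 of 28 wholly above and 3 wholly below (−0.03). Atf4, the transcription factor of that response, read 389 and 247 CPM against 188, 255 and 206 CPM and overlapped, while Ppp1r15a lay wholly below with 174 and 92.4 CPM against 41.6, 60.1 and 59.1 CPM. Of these lists, the proteasome, heat shock, autophagy and stress response medians changed sign under at least one alternative.

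A pair of iron genes stood on opposite sides. Fth1, the ferritin heavy chain, whose translation is held back through an iron-responsive element when iron is scarce, read 1350 and 2476 CPM in total RNA and 105, 505 and 824 CPM in polysomal RNA (unadjusted p 0.103). Tfrc, the transferrin receptor (chromosome 16, 32608920 to 32632794, plus strand), read 112 and 140 CPM against 711, 568 and 645 CPM (2.34, SE 0.66). Neither overlapped, and Fth1 spanned a wide range within the polysomal group. Ftl1, the light chain, had 1623 and 1455 CPM against 1586, 1472 and 896 CPM and overlapped.

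**Figure D3:**
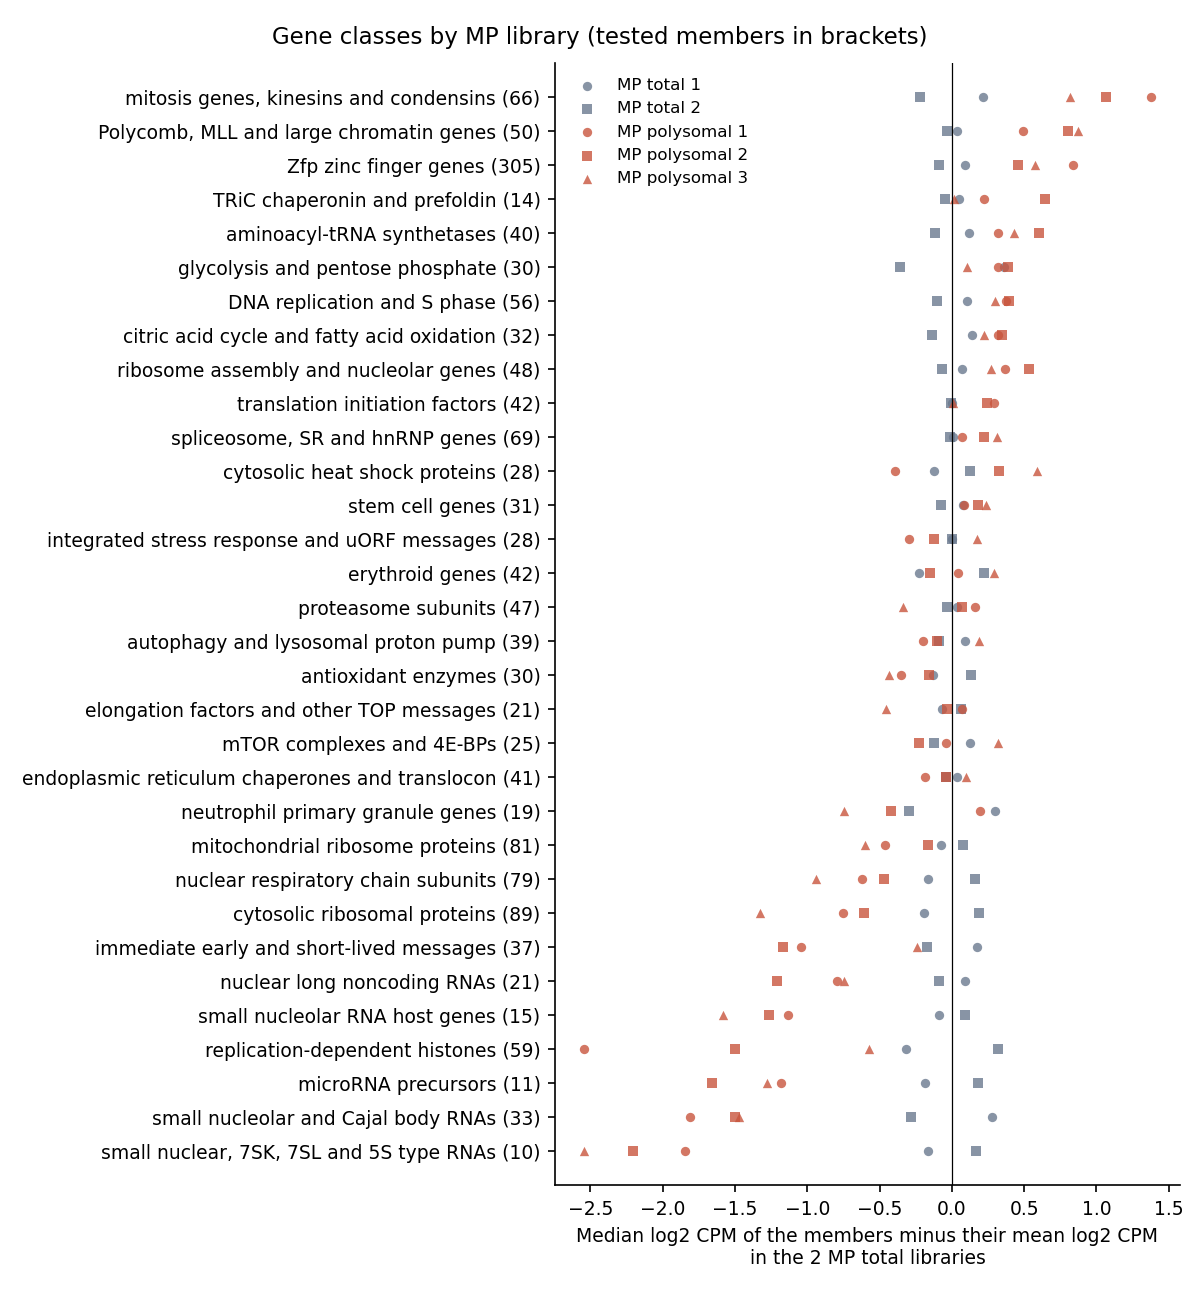
For each gene list (tested members in brackets), the median log2 CPM of its members in each MP library, relative to their mean in the 2 MP total libraries, as one point per library. The points of the 3 polysomal libraries lie left of 0 for small nuclear RNAs, small nucleolar RNAs, histones, host genes, ribosomal proteins and the respiratory chain, and right of 0 for mitosis, large chromatin and zinc finger genes.

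Genes that mark blood cell types had list medians between −0.29 and 0.62, the late neutrophil genes aside. Neutrophil primary granule genes, which the MP cells express at high levels, had none of 19 wholly above and 2 wholly below (median −0.29). Elane read 11082 and 7568 CPM in total RNA and 7902, 6026 and 4393 CPM in polysomal RNA, and Prtn3 had 3355 and 2295 CPM against 1105, 1916 and 1465 CPM and lay wholly below. Erythroid genes had 8 of 42 wholly above and 3 wholly below (median −0.04), and stem cell genes 5 of 31 and 3 (0.11). The megakaryocyte list gave 3 of 23 wholly above and 1 wholly below (0.10), the mast cell and basophil list 5 of 17 and none (0.62), and the macrophage list 4 of 19 and none (0.42). B cell genes had none of 20 wholly above and 1 below (−0.24), T and NK cell genes 2 of 14 and 1 (0.05), and stromal genes none of 9 and 1 (0.13). Summed macrophage genes were highest in the libraries numbered 1 of each fraction, with 1824 and 672 CPM in total RNA and 2592, 938 and 891 CPM in polysomal RNA, as the late neutrophil genes were. The median of the late neutrophil list over its 22 tested genes followed the libraries kept, from −2.26 to 2.005 over the alternatives.

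Coding length and GC content of the transcript separated the fractions across all coding genes. Among 13122 coding genes with an annotation, the median log2 difference went from −0.43 in the quintile with the shortest coding regions (78 to 735 nt) over −0.09, 0.06 and 0.19 to 0.52 in the quintile with the longest (2472 to 100404 nt). In the shortest quintile 802 genes lay wholly below and 95 wholly above, and in the longest 123 wholly below and 1025 wholly above. By GC content the medians ran the other way, from 0.66 in the lowest quintile (33.4% to 44.4%) over 0.25, 0.02 and −0.14 to −0.43 in the highest (56.0% to 74.7%). Spearman's rho across genes was 0.397 with coding length and −0.455 with GC content, while length and GC content themselves gave 0.011. Length of the whole transcript gave a rho of 0.411 and exon number 0.315. Quintiles by transcript length ran from a median of −0.46 to 0.50, so the pattern is not particular to coding length. These are descriptions across genes of the same libraries and carry no p. Among UTRs, quintiles by 3′ UTR length ran from a median of −0.27 to 0.28 and those by 5′ UTR length from −0.10 to 0.07. In the grid of both features the median reached 1.45 for the longest genes of lowest GC content and −0.91 for the shortest of highest GC content.

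The length pattern stood in each polysomal library, whereas the upper end of the GC pattern did not. The longest quintile stood at 0.35, 0.49 and 0.79 in polysomal 1, 2 and 3 relative to the mean of total RNA, and the shortest at −0.32, −0.31 and −0.52. The highest GC quintile stood at −1.12 in polysomal 1, −0.48 in polysomal 2 and 0.07 in polysomal 3, whereas the lowest GC quintile was at 0.88, 0.53 and 0.54. Measured against coding genes of the same length and GC quintiles, the median of ribosomal proteins was −0.47 in place of −0.89, that of the respiratory chain −0.36 in place of −0.66, that of the mitosis list 0.39 in place of 1.04 and that of large chromatin genes 0.35 in place of 0.70. Zinc finger genes went to 0.08 from 0.55, mitochondrial ribosomal proteins to −0.03 from −0.41 and histones to −0.73 from −1.53. The part of length and GC content in the class values was not tested beyond this.

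**Figure D4:**
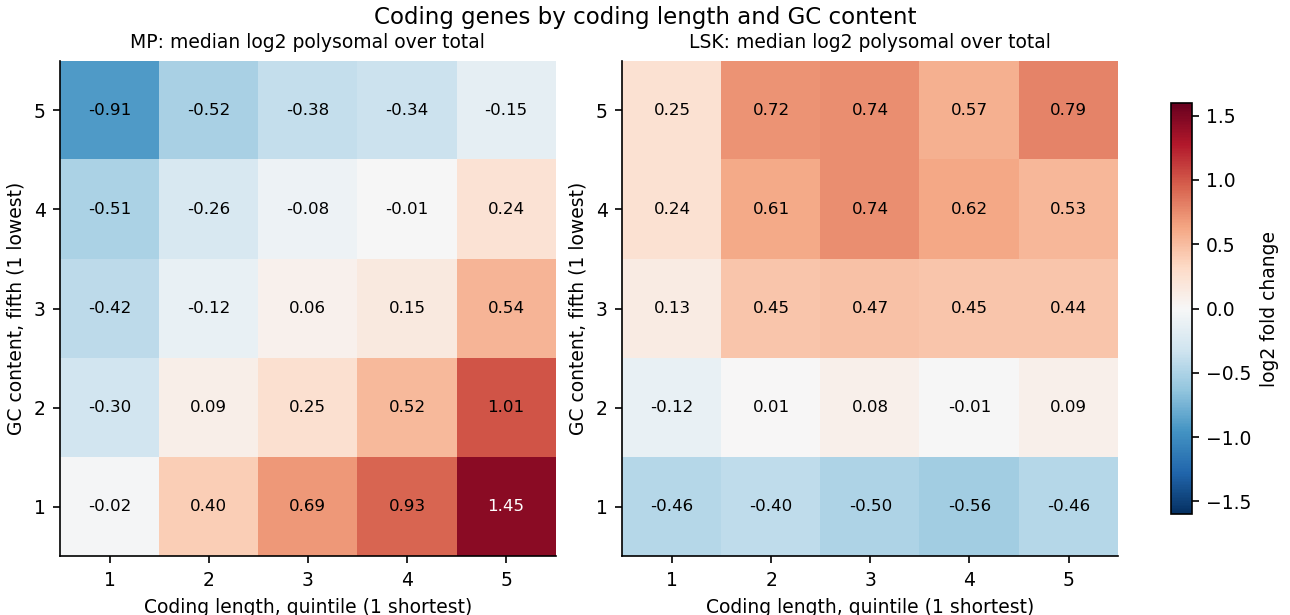
Median log2 polysomal over total of coding genes in a grid of quintiles by coding length (horizontal, 1 shortest) and by transcript GC content (vertical, 1 lowest), for MP on the left and LSK on the right. In MP the medians run from −0.91 for short genes of high GC content to 1.45 for long genes of low GC content. In LSK the GC direction of the medians is the opposite, but this came with LSK polysomal 2. In LSK polysomal 1 the lowest GC quintile stood at 0.04 and the highest at −0.53.

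Set beside the MP comparison, the same comparison in LSK cells gave medians near those in MP for some classes and not for others. The test of the difference itself, the interaction of population and fraction in edgeR's quasi-likelihood fit, called 0 of 16426 genes (0.0%) at an adjusted p of 0.05, with 869 at an unadjusted p under 0.05 and a smallest adjusted p of 0.877. DESeq2 called 1. Small nucleolar RNAs had medians of −1.90 in MP and −3.42 in LSK, host genes −1.46 and −1.58, histones −1.53 and −1.58, and ribosomal proteins −0.89 and −0.49. The respiratory chain stood at −0.66 in MP and 0.01 in LSK, the mitochondrial ribosome at −0.41 and 0.30, the mitosis list at 1.04 and 0.09, glycolysis at 0.33 and 1.37, aminoacyl-tRNA synthetases at 0.42 and 1.12, and the citric acid cycle at 0.31 and 0.84. Zinc finger genes were at 0.55 in MP and −0.54 in LSK, with a median interaction of 1.14 and 75 of 305 genes at an unadjusted p under 0.05. The LSK medians rest on 2 polysomal libraries that differed in some classes. Relative to LSK total RNA, polysomal 1 and 2 stood at 0.56 and −0.67 for mitosis and −0.06 and 0.58 for the mitochondrial ribosome. They had one sign for zinc finger genes (−0.18 and −1.19), histones (−2.17 and −0.53), small nucleolar RNAs (−2.26 and −3.01) and synthetases (0.86 and 1.26). TEC loci and sense intronic transcripts were lower still in LSK, at −4.26 and −5.35, values without a floor for genes at 0. As median log2 CPM relative to total RNA, TEC loci stood at −2.70 and −3.35 in the LSK polysomal libraries. In the MP ones they stood at −0.81, −1.33 and −0.80. Sense intronic transcripts stood at −3.08 and −3.17 in LSK against −1.02, −1.47 and −0.92 in MP.

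The medians by GC content went in opposite directions in the populations, though not in every library. The quintiles from lowest to highest GC content had LSK medians of −0.48, 0.01, 0.38, 0.53 and 0.61, against 0.66, 0.25, 0.02, −0.14 and −0.43 in MP, and rho with GC content was 0.382 in LSK. In LSK the GC pattern came with 1 library: the highest GC quintile stood at −0.53 in LSK polysomal 1 and at 1.34 in LSK polysomal 2, and the lowest at 0.04 and −1.21. Coding length gave a rho of 0.082 in LSK. Zfp46 and Mdm2 were low in both populations, with LSK differences of −3.30 and −3.52. Top2a had a difference of 0.57 in LSK, with 805 and 206 CPM in total RNA against 1249 and 247 CPM in polysomal RNA, and these libraries overlapped. Tug1 stood at −1.25 in LSK against 1.56 in MP (interaction 2.81, SE 1.08, adjusted p 0.877).

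**Figure D5:**
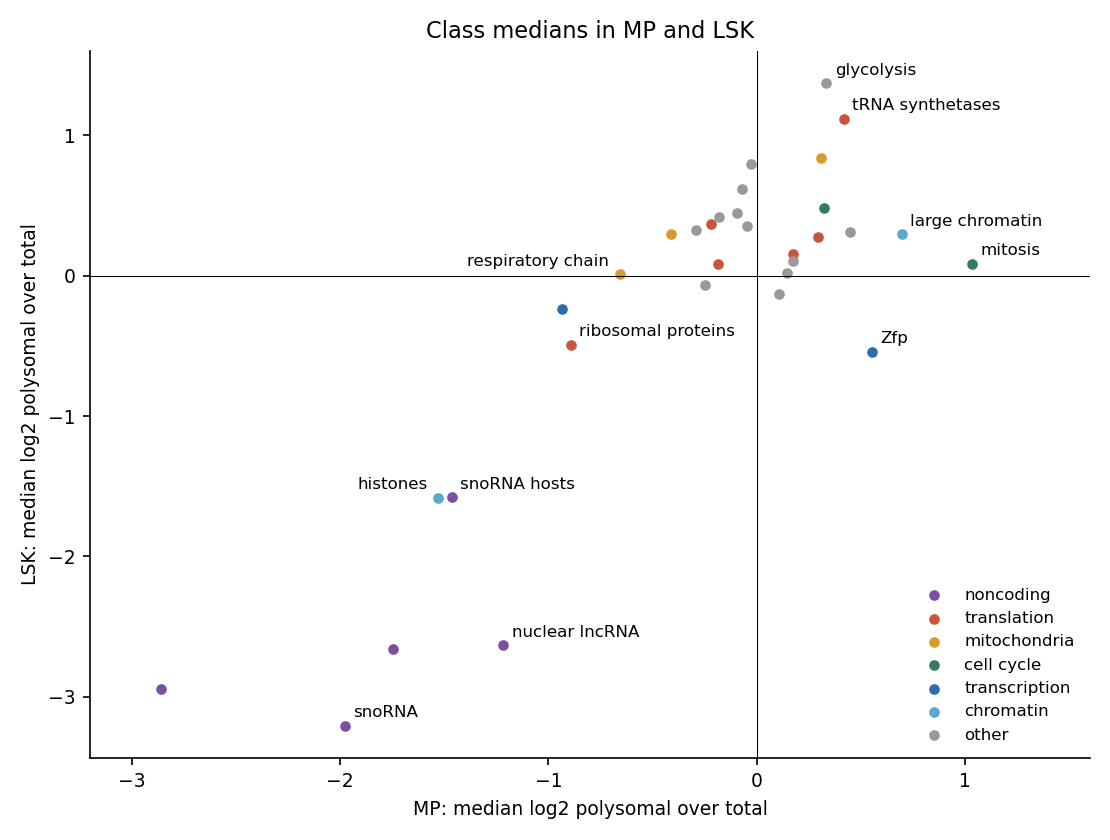
Median log2 polysomal over total of each gene list in MP (horizontal) and in LSK (vertical), one point per list, coloured by role. Small nucleolar RNAs, host genes and histones lie in the lower left, mitosis genes at 1.04 in MP and 0.09 in LSK, and zinc finger genes at 0.55 in MP and −0.54 in LSK.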

How the data were processed

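RNA was extracted with Trizol and libraries were made with a SMARTer amplification protocol, per the labels' protocols. Raw counts of each gene, and a second table of normalized log2 values, were deposited by the authors. bcl2fastq, STAR, featureCounts and DESeq2, with mm10 and GRCm38, are named without versions or settings in the submitters' processing notes. The strand setting is not given in the sources used here. The counts were tested with edgeR 4.0.16 (filterByExpr with a minimum count of 10 and a total of 15, TMM, quasi-likelihood fit of group means over all 9 libraries, 5 residual degrees of freedom, Benjamini-Hochberg threshold 0.05) in R 4.3.3. The deposited log2 values served only for an alternative with limma 3.58.1, and DESeq2 1.42.0 was another. Of 47478 gene names, 45187 matched GENCODE M21 on GRCm38 by symbol and 604 by RefSeq synonym, 1687 did not match, and 25 read as dates. Coding length, UTR length, exons and GC content are those of 1 transcript a gene. The SD given with a class median is over the 3 polysomal libraries, but not of the fitted log2 differences. It is that of the members' median log2 CPM relative to their mean in total RNA, computed with a prior count of 2. The prior count draws differences at low counts towards 0, so for classes of low counts this SD can understate the spread. In each direction the 10 genes named in full would be those past the threshold with the largest differences. As none passed, they are those with the smallest p, 10 CPM or more on average in whichever group was higher, and no overlap, leaving out predicted genes and clones. Of the higher genes so chosen, 3 are not reported here. Up to 4 genes a list by smallest p, and a fixed set of familiar genes, were added; Ccnb2, Cenpa, Spc24, Ube2c, Kif11, Kmt2c, Sdha, Ptcd3, Cox5a, Snrpf, Rpl7l1 and Gm10800 were chosen after their values were seen. The classes and lists were chosen with earlier results of these data known. Fits were tested on simulated data. Alternatives were other scalings, filters and tools, a replicate block and leaving out libraries.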

Additional observations from a re-analysis of the deposited data

Results flagged for a closer look

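In Malat1 and Rbm25, the 2 genes flagged here, every MP polysomal library lay above both MP total libraries. Every LSK polysomal library lay below both LSK total libraries. The share of all 16426 tested genes with this pattern is not given here, so it is not shown to be particular to them. In the zinc finger list alone, 144 of 305 genes lay wholly above in MP and 83 wholly below in LSK. Malat1 had a log2 difference of 1.04 in MP and −3.07 in LSK, where it stood at 679 and 978 CPM in total RNA and at 183 and 13.5 CPM in polysomal RNA. The interaction of population and fraction was 4.12 (SE 1.29, unadjusted p 0.0103, adjusted p 0.877 in edgeR's quasi-likelihood test), so the difference between populations did not pass the correction. Rbm25, an RNA-binding splicing regulator with 102 and 94.3 CPM in MP total RNA against 378, 238 and 228 CPM in MP polysomal RNA, had 1.52 in MP and −1.04 in LSK. Its interaction was 2.56 (SE 0.72, unadjusted p 0.00545, adjusted p 0.877), which did not pass either.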

How the results depend on the processing

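The counts of called genes depended on the tool and the filter. DESeq2 called 10 genes higher, 8 lower and 1 differing between MP and LSK, and edgeR without a filter on low counts called 6, 16 and 4. The labels number the replicates. Deviations of same-numbered libraries from their group means correlated at r of 0.445 for the MP libraries numbered 1, −0.375 for those numbered 2 and 0.457 in LSK. MP polysomal 3, with no total library of its number, gave 0.608 with total 2. Deviations of 2 total libraries mirror each other, so r with the other total library is the same with opposite sign. These values are thus not independent and do not settle pairing, and the numbers were not taken as pairs. With the replicate block, 1 gene was lower, 0 were higher and 0 differed between populations. Leaving out any one library gave 0 to 0 in all these counts.

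The median of the nuclear long noncoding RNAs was −0.43 with limma on the authors' normalized values, −0.55 at a mean of at least 10 CPM, −0.21 with the MP libraries alone and −0.51 without both MP libraries numbered 1. Leaving out one library moved it between −1.41 and −0.48, that of mitosis genes between 0.83 and 1.39, that of the shortest quintile between −0.45 and −0.31 and that of the longest between 0.38 and 0.76. The shortest quintile was at −0.57 with library totals alone. Measured against genes of the same length and GC quintiles, an alternative chosen after seeing the data, ribosomal proteins were at −0.47, the respiratory chain at −0.36 and mitosis genes at 0.39.

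Of 55 classes followed, 40 kept the sign of their median in the settings that left at least 3 tested members. Of 1769 values over 99 named genes, 1740 kept direction and call, 14 were called by DESeq2 or without a filter only (Sf3b1, Herc1 and Zfp46 among them) and 15 in 4 genes changed sign. Eef1a1 turned to −0.035 with limma, −0.11 with library totals, −0.083 at 10 CPM and −0.070 without both numbered 1, and leaving out single libraries it ran from −0.17 to 0.29. Pabpc1 turned to 0.0069 without a filter and 0.12 with the replicate block, and ran from −0.17 to 0.17 without single libraries. Actb turned to 0.24 without both numbered 1 and ran from −0.50 to 0.26 without single libraries, and Mpo ran from −0.19 to 0.81. The causes were not tested. Low counts limit the small RNAs, most of them under 1 CPM.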
